A study of Mus musculus with 2 samples.

Results

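The 10 antiviral interferon-stimulated genes Ifit1, Ifit2, Ifit3, Isg15, Rsad2, Usp18, Oasl2, Rtp4, Zbp1 and Irf7 were taken by symbol from 2 single-cell count tables of mouse lung, and all 10 were among the 10198 genes listed in both. Mice had received Labelling-4T1 cells into a vein, and 7 days later their lungs gave cells sorted as negative for CD45, the pan-leukocyte surface protein. The 4T1 line comes from a mammary carcinoma of the mouse and spreads to lung, and the labelling form releases a fluorescent protein that neighbouring cells take up. One library is titled niche cells and the other distal lung cells. The labels used here do not give the strain, age or number of animals, how the cells were gated, or whether injected cells were kept out. The deposited tables are named Cherry-positive for the niche and Cherry-negative for the distal cells. Each group is 1 library, so no difference has a replicate check, and each interval below is an exact 95% interval for counting error only, in which each molecule counts as independent.

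Interferons bind receptors on the cell surface, whose JAK kinases pass the signal on to transcription factors. These bind interferon-stimulated response elements in DNA and switch on antiviral genes. The 10 genes cover several steps of that programme. Ifit1, Ifit2 and Ifit3 encode proteins that bind viral RNA or assist those that do. Rsad2 encodes viperin, an enzyme that makes a chain-terminating nucleotide, and Oasl2 belongs to the oligoadenylate synthetase family. Isg15 encodes a ubiquitin-like modifier, and Usp18 encodes the protease that removes it and that also damps the type I interferon receptor. Zbp1 encodes a sensor of Z-form nucleic acid that can start necroptosis, and Irf7 encodes a transcription factor that amplifies interferon production. Rtp4 encodes a transmembrane protein induced by interferon.

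Ifit2 (chromosome 19, 34550694 to 34576419), Ifit3 (34583531 to 34588731) and Ifit1 (34640871 to 34650009) are neighbours on the plus strand in the GENCODE annotation of GRCm38, and the other 7 genes lie on chromosomes 2, 4, 5, 6, 7, 12 and 16. RefSeq promoter windows (GRCm38.p6, 250 bases before to 50 after the annotated start) were found for 7 of the 10 genes, all but Usp18, Rtp4 and Zbp1. Each window was searched on both strands for GAAANNGAAA, the core repeat of the interferon-stimulated response element, with overlapping matches counted separately. The letters were present in the windows of Isg15, Ifit1, Ifit3 and Rsad2 and absent from those of Ifit2, Oasl2 and Irf7. Of all 32851 windows, 3.44% held them. The stretches from -165 to -46 relative to the start of these 4 genes are printed below 5′ to 3′ on the gene's own strand, because they hold every match found in the 4 windows, and capitals mark the matches. The Isg15 stretch (chr4:156200864-156200983, minus strand) held 3 overlapping forward matches. The stretches of Ifit1 (chr19:34640724-34640843, plus strand) and Ifit3 (chr19:34583364-34583483, plus strand) held 2 matches each in reverse, and that of Rsad2 (chr12:26456498-26456617, minus strand) held 1 in reverse. A match describes letters only, and no binding was measured.
Isg15: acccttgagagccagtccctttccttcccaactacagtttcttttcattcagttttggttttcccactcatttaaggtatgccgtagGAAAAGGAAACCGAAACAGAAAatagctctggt
Ifit1: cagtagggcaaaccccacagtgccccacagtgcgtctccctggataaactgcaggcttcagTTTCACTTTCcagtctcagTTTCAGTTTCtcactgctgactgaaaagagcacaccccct
Ifit3: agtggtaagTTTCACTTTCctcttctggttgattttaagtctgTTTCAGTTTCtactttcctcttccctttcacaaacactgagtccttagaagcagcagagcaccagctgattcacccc
Rsad2: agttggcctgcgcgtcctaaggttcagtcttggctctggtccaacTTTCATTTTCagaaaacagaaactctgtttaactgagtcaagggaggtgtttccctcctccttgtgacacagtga

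After filtering, the niche library held 1423 cells and 5139368 unique molecular identifiers (UMIs, each a counted transcript), and the distal library held 1987 cells and 4781222 UMIs. The median depth was 2975 UMIs per niche cell and 1975 per distal cell, so shares of cells with a UMI are given at own depth and after thinning every cell to 1000 UMIs, which left out 133 shallow distal cells. Clusters were built without the 10 genes and without the interferon lists among the variable genes. There were 780 niche and 399 distal mesenchymal-like cells, 476 and 1244 endothelial-like cells, 94 and 254 epithelial-like cells, and 52 and 26 immune-like cells. Another endothelial cluster, led by Fam167b and Trp53i11 and with an airway gene among its leading genes, was kept apart with 21 niche and 64 distal cells. At least 4 listed markers of the class were detected in 25% or more of the cells of each class and library, while markers of the other lists were low: summed mesenchymal markers reached 24629 UMIs per 1000000 UMIs (CPM) in niche and 38705 CPM in distal mesenchymal-like cells, against 678 CPM in niche and 260.2 CPM in distal endothelial-like cells. Surfactant-cell markers were found outside epithelial cells in the distal library above all, with a sum of 177 CPM in niche and 2420 CPM in distal mesenchymal-like cells, and 504 CPM in niche and 2531 CPM in distal endothelial-like cells. Immune markers, of which 4 of 8 were listed in both tables, summed to 9.71 CPM in niche and 5.37 CPM in distal mesenchymal-like cells. Whether these transcripts were free RNA, and what part free RNA had in the levels below, was not tested. No class is known to lack the 10 genes. A total of 6 cell barcodes occurred in both libraries.

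Over all cells, the 10 genes together were higher in the niche library, with 9691 UMIs in niche cells and 3600 UMIs in distal cells. These are 1900.4 CPM and 757 CPM, a log2 ratio of niche over distal of 1.33 (1.27 to 1.38). The threshold for a gene to count as 2-fold higher or lower was a ratio of at least 2-fold with an interval clear of equality, among genes with at least 10 UMIs, a minimum that all 10 passed in each of the 3 larger classes. Of the 10, 7 were 2-fold higher over all cells and 0 were lower, where 5.16% of all 10198 genes were 2-fold higher and 6.08% lower. At 4-fold, 3 of the 10 were higher, where 1.05% of all genes were. Of the 7, Ifit1 was under 2-fold in cells thinned to 1000 UMIs (log2 ratio 0.95). Rsad2 had the highest ratio of the 10, with 105 CPM in niche and 21.9 CPM in distal cells, and Rtp4 the lowest, with 170 CPM in niche and 141 CPM in distal cells. The other 2 below the threshold were Usp18 and Oasl2, with log2 ratios of 1.0 and 0.93. The mix of cells differed between the libraries, so the classes are given one by one. With the niche classes weighted to the distal shares of UMIs, an alternative chosen after seeing the data, the log2 ratio of the sum was 0.97, and Isg15 (0.90) and Irf7 (0.9975) were just under 2-fold.

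**Figure D1:**
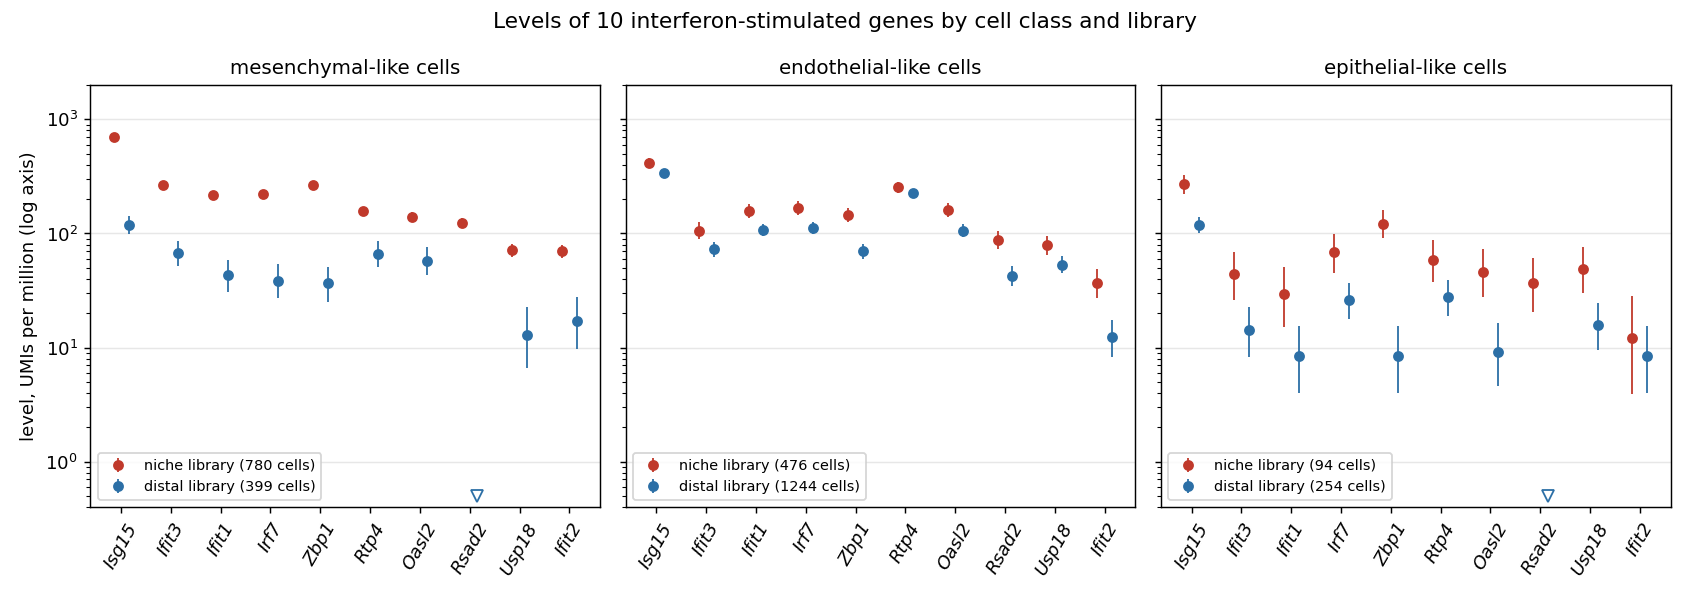
Level of each of the 10 genes in mesenchymal-like, endothelial-like and epithelial-like cells, in CPM on a log axis, for the niche (left, red) and distal (right, blue) library. Bars are exact Poisson 95% intervals and open triangles mark a count of 0, which occurs for Rsad2 in distal mesenchymal-like and distal epithelial-like cells. The 2 colours stand apart for every gene in mesenchymal-like cells and lie closer together in endothelial-like cells.

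In mesenchymal-like cells, a class that in lung takes in fibroblasts, myofibroblasts and pericytes, all 10 genes were 2-fold higher in the niche library, where 3.4% of 9969 genes were, and 7.41% were 2-fold lower. At 4-fold, 6 of the 10 were higher, where 0.943% of all genes were. The sum of the 10 was 2231 CPM in niche cells and 459 CPM in distal cells, a log2 ratio of 2.28 (2.14 to 2.42). The median of the 10 log2 ratios was 2.37, beside -0.16 over all genes measured in the class.

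Among the genes whose products act on viral RNA or nucleotides, Rsad2 differed most. It had 395 UMIs in niche mesenchymal-like cells and 0 UMIs in distal ones. With 3 UMIs over the class taken for the 0 it was 38.4-fold higher, and the interval of its log2 ratio starts at 4.96. No Rsad2 UMI was seen in 399 distal mesenchymal-like cells, which allows a share of cells with a UMI of up to 0.752% when 3 cells are taken as the limit of a count of 0, at a median depth of 2078 UMIs. Ifit1 reached 217 CPM in niche and 42.9 CPM in distal cells (log2 ratio 2.32, 1.87 to 2.83). Ifit3 reached 267 CPM in niche and 67.6 CPM in distal cells (1.97, 1.61 to 2.37), and Ifit2 70.1 CPM and 17.2 CPM (1.99, 1.30 to 2.86). The 3 Ifit ratios have intervals that overlap. Ifit3b, a near-identical neighbour of Ifit3, had 404 niche and 27 distal UMIs, and how reads matching both genes were counted was not examined. Oasl2, with 140.0 CPM in niche and 58.0 CPM in distal cells, had one of the 2 smallest ratios (1.26, 0.86 to 1.71).

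Isg15, the ubiquitin-like modifier, had 2237 niche and 111 distal UMIs. It stood at 700.4 CPM in niche mesenchymal-like cells and 119 CPM in distal ones (log2 ratio 2.55, 2.28 to 2.84). Usp18, which removes Isg15 from proteins, had 228 niche and 12 distal UMIs (2.41, 1.64 to 3.44). Of the 5 measured genes for Isg15 attachment and removal, 2 were 2-fold higher: Usp18 itself and the ligase gene Herc6 (1.07). The conjugating enzyme gene Ube2l6 had a log2 ratio of 0.87 and the activating enzyme gene Uba7 0.82, both below the threshold.

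Zbp1, the nucleic acid sensor, had the second highest ratio among the 10, with 264 CPM in niche and 36.5 CPM in distal mesenchymal-like cells (log2 ratio 2.83, 2.36 to 3.39). Of 6 genes listed as its partners, 3 were 2-fold higher. Mlkl, the executioner of necroptosis, had 115 niche and 1 distal UMIs, and its kinase gene Ripk3 had 32 and 1, so that both ratios rest on a single distal UMI. The third was Trim30a, with 88 niche and 2 distal UMIs, an interferon-induced TRIM gene that is no necroptosis gene and is also counted in the antiviral list below, while Ripk1, Casp8 and Fadd were not 2-fold apart. Irf7 stood at 221 CPM in niche and 38.6 CPM in distal cells (2.50, 2.03 to 3.04). Of 6 other genes for interferon regulatory factors and proteins binding them, 0 were 2-fold higher or lower, and Irf1, an early target of interferon gamma, stood at a log2 ratio of 0.33. Rtp4, at 156 CPM in niche and 66.6 CPM in distal cells, had the smallest ratio of the 10 (1.22, 0.85 to 1.64).

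The class was not made of the same cells in both libraries. A cluster led by Cxcl14 and Timp1 was the largest of it in the niche library, with 298 niche and 18 distal cells, and a cluster led by Slc7a10 and Tcf21 was the largest in the distal library, with 137 and 153 cells. Without the Cxcl14/Timp1 cluster the log2 ratio of the sum was 2.05 and that of Ifit2 0.44, below the threshold. Without the cluster led by the contractile gene Actg2 and Mustn1, that of Rtp4 was 0.92. Within the 3 clusters that had at least 20 cells in both libraries, the sum was higher in niche cells each time. It was 2449 CPM in niche and 455 CPM in distal cells of the Actg2/Mustn1 cluster (log2 ratio 2.42, 2.13 to 2.74). The Pi16/Serpinf1 cluster had 1253 CPM in niche and 390 CPM in distal cells (1.68, 1.39 to 1.99), and the Slc7a10/Tcf21 cluster 854 CPM and 427 CPM (1.0, 0.72 to 1.28). The mean of these 3 log2 ratios was 1.70, and by the same mean Ifit2 (0.13) and Oasl2 (0.71) were under 2-fold. Ifit2 had 13 niche and 3 distal UMIs in the Actg2/Mustn1, 9 and 3 in the Pi16/Serpinf1 and 8 and 7 in the Slc7a10/Tcf21 cluster. Each of its 3 intervals included equality. Rsad2 had 0 UMIs in the distal cells of all 5 mesenchymal-like clusters. The cluster led by the pericyte genes Higd1b and Cox4i2 had 4172 CPM in 19 niche cells, with 225 UMIs, and 623 CPM in 35 distal cells, with 33 UMIs.

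**Figure D2:**
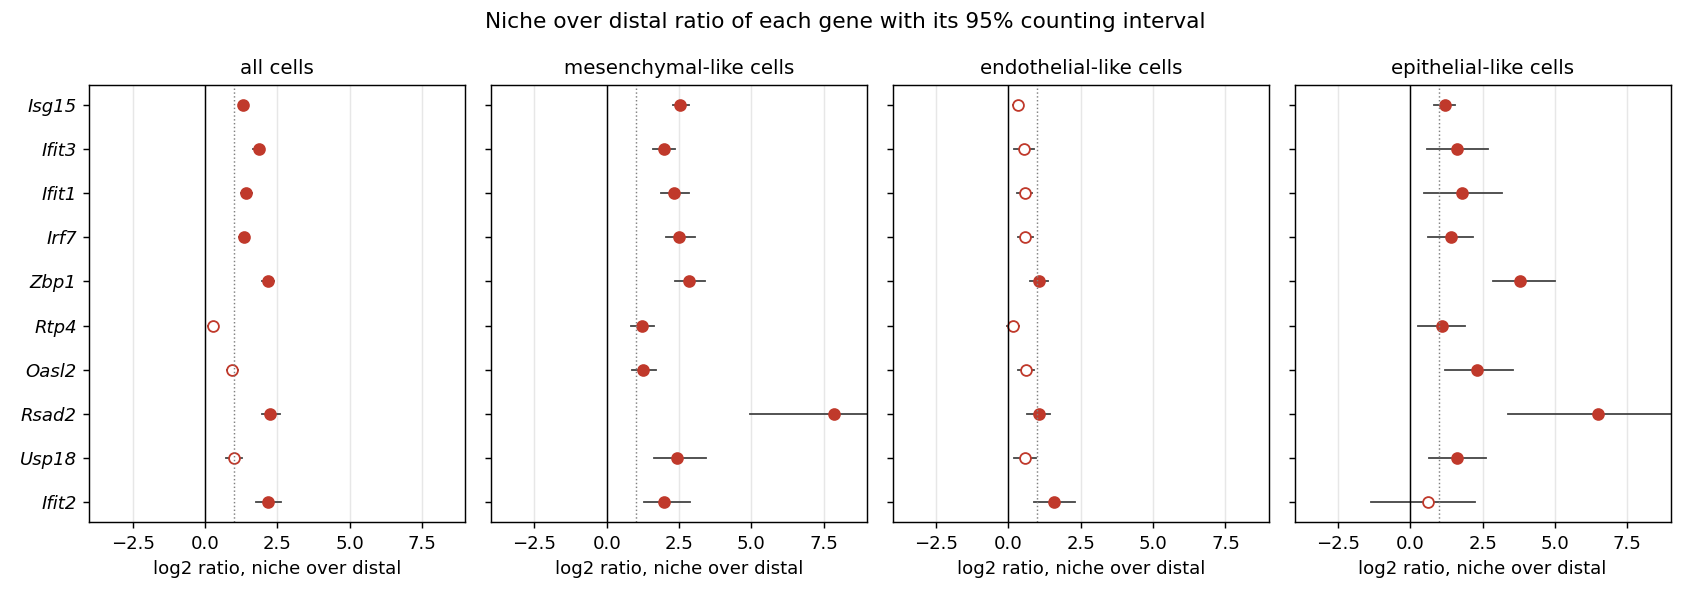
Log2 ratio of niche over distal for each gene over all cells and in 3 classes, with exact 95% counting intervals as lines. Filled points are genes counted as 2-fold higher, the dotted line marks 2-fold, and the intervals of Rsad2 in mesenchymal-like and epithelial-like cells have no upper end because the distal count is 0. Filled points number 7 over all cells, 10 in mesenchymal-like, 3 in endothelial-like and 9 in epithelial-like cells.

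In endothelial-like cells the 10 genes were together 1.42-fold higher in the niche library. The sum was 1612 CPM in niche and 1138 CPM in distal cells, a log2 ratio of 0.50 (0.42 to 0.58). Ifit2, Rsad2 and Zbp1 were 2-fold higher, 3 of 10, where 2.11% of 9688 genes were 2-fold higher and 1.72% lower. At 4-fold, 0 of the 10 were higher, where 0.712% of all genes were. Ifit2 had 48 niche and 30 distal UMIs (1.57, 0.89 to 2.28), Rsad2 115 and 104 (1.04, 0.65 to 1.44), and Zbp1 190 and 170 (1.06, 0.75 to 1.37). The log2 ratios of Ifit1, Ifit3, Usp18, Oasl2 and Irf7 ran from 0.54 for Ifit3 to 0.61 for Oasl2, with intervals above 0. Isg15 stood at 417 CPM in niche and 336 CPM in distal cells (0.31, 0.15 to 0.47). Rtp4 stood at 253 CPM and 225 CPM (0.17, -0.04 to 0.37), the 1 gene of the 10 whose interval included equality.

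The 3 endothelial genes passed the threshold only with 1 small cluster included. It was led by Ubd and Ido1, genes known to respond to interferon gamma, had Rsad2 among its 10 leading genes, and held 36 niche and 19 distal cells. In it the sum reached 5302 CPM in niche and 5694 CPM in distal cells, the highest of any cluster in either library, although 1 distal cell held 139 of the 367 distal UMIs. Rsad2 stood at 664 CPM in niche cells and 760.3 CPM in distal cells of this cluster. These 19 cells, 0.956% of the distal library, held 47.1% of its Rsad2 UMIs, and the 36 niche cells, 2.53% of that library, held 19.1%. Without the cluster, 0 of the 10 genes passed the threshold in endothelial-like cells, although Rsad2, at a log2 ratio of -0.9999, was only just short of 2-fold lower. The log2 ratio of the sum was then 0.14 and that of Ifit2 -0.07. The share of the class that the cluster makes up differed too, at 36 of 476 niche cells and 19 of 1244 distal cells.

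Outside it, the cluster led by Sox17 and Sema3c was the largest endothelial cluster in both libraries, with 113 niche and 372 distal cells. Its summed level was 1698 CPM in niche and 1525 CPM in distal cells (log2 ratio 0.16, -0.01 to 0.31). Rsad2 was lower in niche cells there, with 6 niche and 48 distal UMIs (-1.39, -3.01 to -0.27), and 1 distal cell held 20 of the 48. In the cluster led by Kit and Aplnr the sum was 1084 CPM in niche and 668 CPM in distal cells (0.70, 0.43 to 0.97). In the cluster led by Chst1 and Ednrb it was 1075 CPM and 871 CPM (0.30, 0.05 to 0.55). The clusters led by Hpgd and Prodh (-0.07, -0.42 to 0.27) and by Esm1 and Atp13a3 (-0.14, -0.49 to 0.20) had intervals that included equality, as did the cluster kept apart (0.24, -0.25 to 0.71).

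**Figure D3:**
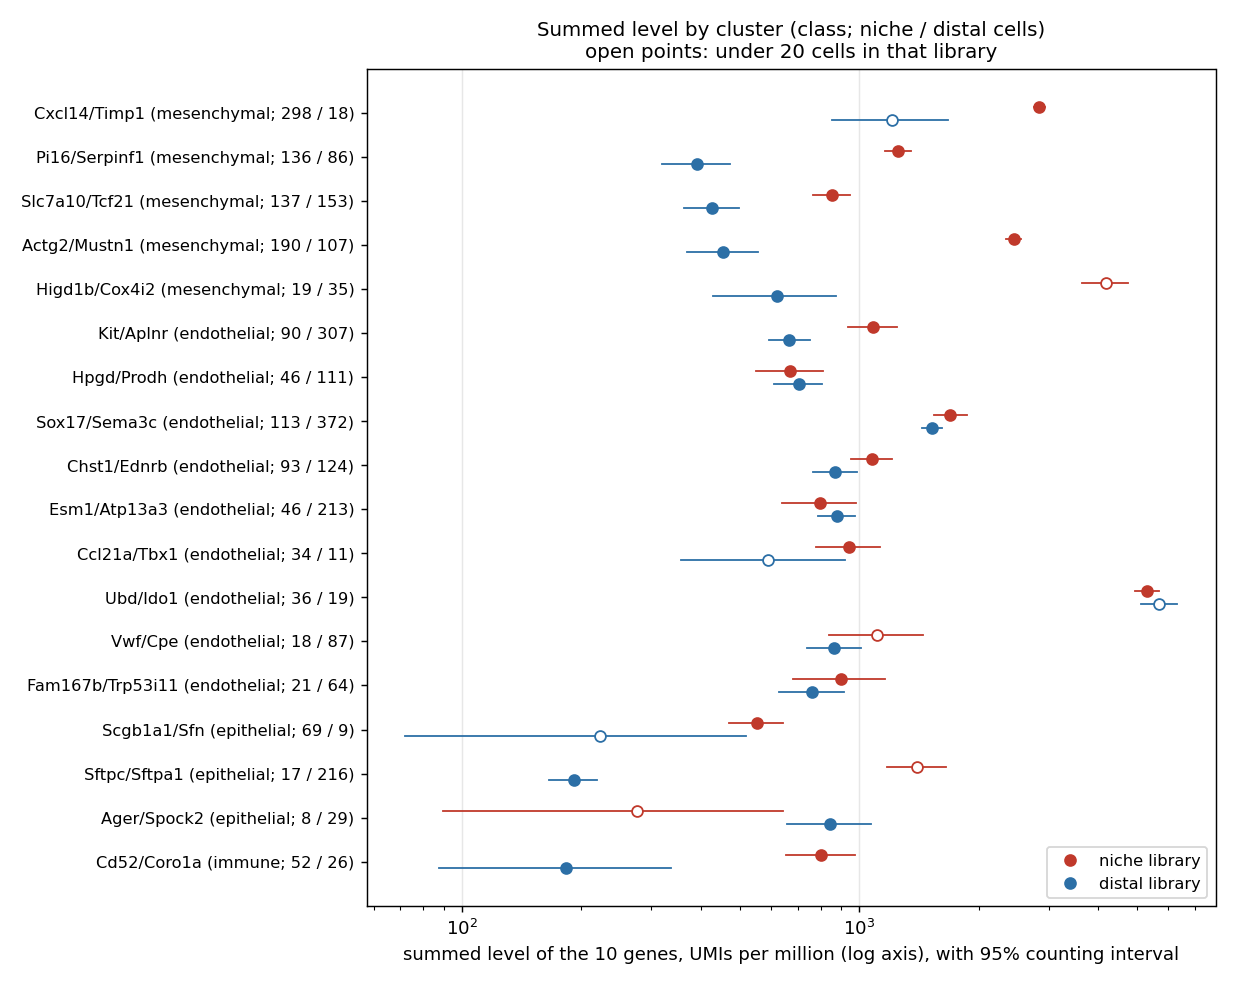
Summed level of the 10 genes in each cluster, in CPM on a log axis, with exact Poisson 95% intervals, for the niche (upper, red) and distal (lower, blue) library. Open points rest on under 20 cells. The Ubd/Ido1 cluster is highest in both libraries, with 5302 CPM in niche and 5694 CPM in distal cells.

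Epithelial-like cells had the lowest sum in the niche library, with 737 CPM, and 237 CPM in the distal library (log2 ratio 1.64, 1.40 to 1.88). All but Ifit2 were 2-fold higher, 9 of 10, where 12.4% of 8071 genes were 2-fold higher and 10.3% lower. At 4-fold, 3 of the 10 were higher, where 4.1% of all genes were. After thinning to 1000 UMIs per cell, 3 of the 10 were 2-fold higher. The share of all genes was not counted after thinning, nor without the alveolar type 2 cluster below. Zbp1 had 122 CPM in niche and 8.37 CPM in distal cells (3.81, 2.87 to 5.01), and Oasl2 46.4 CPM and 9.21 CPM (2.30, 1.19 to 3.55). Isg15 had 271 CPM in niche and 119 CPM in distal cells (1.19, 0.82 to 1.56). The epithelial cells compared were not of the same kind. The niche library held 69 cells of a cluster led by Scgb1a1, Sfn and Krt8 and 17 surfactant-producing alveolar type 2 cells, and the distal library held 9 and 216. Without the alveolar type 2 cluster, 1 of the 10 was 2-fold higher, the log2 ratio of the sum turned to -0.41 and that of Isg15 to -0.30. The distal side then held only the 9 cells of the Scgb1a1 cluster and the 29 cells of the Ager/Spock2 cluster below. In those 29, 1 cell held 54 of the 70 UMIs of the 10 genes, and the ratio without that cell was not computed. In alveolar type 2 cells themselves the sum was 1399.8 CPM in 17 niche cells, where 1 cell held 51 of 133 UMIs, and 191 CPM in 216 distal cells. Rsad2 had 15 niche and 0 distal UMIs in epithelial-like cells, and the 15 came from 3 cells. With 3 UMIs over the class taken for the 0 it was 14.6-fold higher, and the interval of its log2 ratio starts at 3.39. In the cluster led by Ager, a gene of alveolar type 1 cells, and Spock2, the order was the other way, with 276 CPM in 8 niche cells and 846 CPM in 29 distal cells, of which 1 cell held 54 of the 70 UMIs. Immune-like cells left in the sort had 101 UMIs of the 10 genes in niche and 10 UMIs in distal cells (802 CPM and 183 CPM), and 1 niche cell held 43 of the 101.

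Ordered by the summed level, clusters of at least 20 niche cells ran from Ubd/Ido1 (5302 CPM) over Cxcl14/Timp1 (2839 CPM), Actg2/Mustn1 (2449 CPM) and Sox17/Sema3c (1698 CPM) to Hpgd/Prodh (671 CPM) and Scgb1a1/Sfn (553 CPM), and the intervals of these first 4 do not overlap. From Pi16/Serpinf1 (1253 CPM) downward, neighbouring intervals overlap. Clusters of at least 20 distal cells had another order, with Sox17/Sema3c first (1525 CPM), followed by 8 clusters between 623 CPM and 879 CPM whose neighbouring intervals overlap. The distal mesenchymal clusters led by Actg2, Slc7a10 and Pi16 came next (455 CPM, 427 CPM and 390 CPM) with intervals that overlap one another, and alveolar type 2 and immune-like cells were lowest (191 CPM and 183 CPM).

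Whether the signal was broad or in a few cells differed between the genes. In the niche library 994 of 1423 cells (69.9%) had at least 1 UMI of the 10 genes, and in the distal library 987 of 1987 cells (49.7%). At 1000 UMIs per cell the shares were 50.04% of niche and 34.95% of distal cells. The 10% of cells with the most held 60.4% of the niche and 61.4% of the distal UMIs of the 10 genes, and 94 niche and 123 distal cells held 50% of them. At 1000 UMIs per cell, 53.6% of niche and 26.1% of distal mesenchymal-like cells had a UMI of the 10, and in endothelial-like cells 49.8% of the niche and 44.2% of the distal cells did. The lowest thinned share among clusters of at least 20 cells was in distal alveolar type 2 cells (6.94%).

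Each gene's share of cells was set beside the share that its mean level would give if UMIs fell on cells by their depth alone. By the ratio of the 2 shares, Rtp4 and Oasl2 came nearest to that even spread in the niche library. Rtp4 was seen in 33.3% of niche and 22.4% of distal cells, where depth alone gives 42.7% and 27.4%. Oasl2 was seen in 26.1% of niche and 12.9% of distal cells, where depth alone gives 36.2% and 15.1%. By the same ratio Rsad2 was the farthest from it. It was seen in 94 niche cells (6.61%) and 23 distal cells (1.16%), where depth alone gives 29.9% and 5.06%, and 9 niche and 3 distal cells held 50% of its UMIs. A single niche cell held 66 of the 534 niche Rsad2 UMIs, and a single distal cell 28 of the 104 distal ones. Isg15 was seen in 40.8% of niche and 23.5% of distal cells, where depth alone gives 80.3% and 39.8%. Ifit1 was seen in 20.2% of niche and 8.96% of distal cells, where depth alone gives 44.6% and 14.5%. In distal mesenchymal-like cells Ifit2, with 15 cells for 16 UMIs, and Usp18, with 11 cells for 12 UMIs, were spread as depth gives, at few UMIs.

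**Figure D4:**
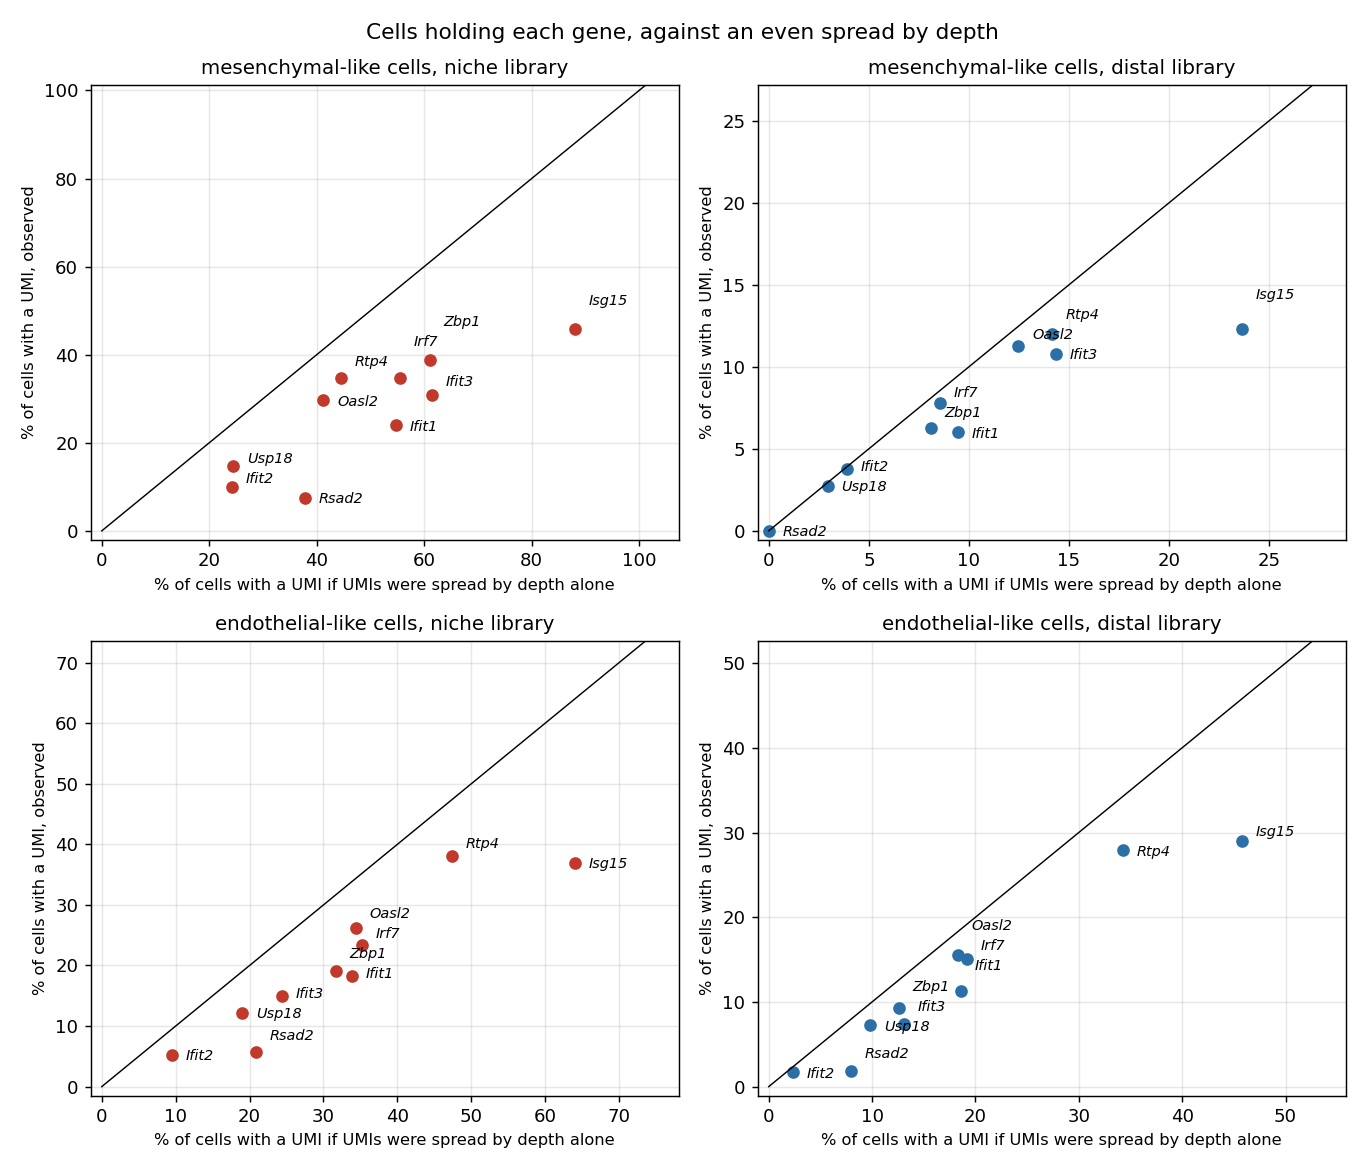
Share of cells with a UMI of each gene against the share expected if its UMIs were spread over cells by depth alone, for mesenchymal-like (top) and endothelial-like cells (bottom) in the niche (left) and distal (right) library. Each point is 1 gene and the line marks equality. Points lie on or below the line, with Rsad2 and Isg15 far below it in niche mesenchymal-like cells.

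In niche mesenchymal-like cells and in endothelial-like cells of both libraries, cells with a UMI of a gene had a higher median number of the other 9 than cells without one, for 10 of 10 genes each. In distal mesenchymal-like cells this held for 8 of 9 genes, and Ifit2 was the exception, with a median of 0 in the 15 cells with it and in the 384 without. In epithelial-like cells it held for 9 of 10 genes in the niche library, all but Ifit3, and for 9 of 9 in the distal library. All these numbers are at own depth. In mesenchymal-like and endothelial-like cells of both libraries, cells with a gene had a higher median depth for every gene detected. For Rtp4 in niche mesenchymal-like cells the medians were 4947.5 UMIs with it and 3088 UMIs without. How far depth raises these numbers was not tested, and other genes were not counted this way. In niche mesenchymal-like cells, the 59 cells with an Rsad2 UMI had a median of 8 of the other 9 genes, and the 721 cells without one had a median of 1. The cells with Rsad2 were also deeper, with a median of 5670 UMIs against 3432 in those without. In distal endothelial-like cells, the 23 cells with Rsad2 had a median of 4 of the other 9 and the 1221 cells without one had 1, at median depths of 2449 and 1681 UMIs. A UMI of 5 or more of the 10 genes was found in 280 niche cells (19.7%) and 83 distal cells (4.18%) at own depth, with 98 niche and 66 distal cells at exactly 4. At 1000 UMIs per cell these were 72 of 1423 niche cells (5.06%) and 22 of 1854 distal cells (1.19%). By class, 54 of 780 niche (6.92%) and 3 of 379 distal mesenchymal-like cells (0.792%) had 5 or more after thinning, and among endothelial-like cells 15 of the 476 niche cells (3.15%) and 17 of the 1139 distal cells (1.49%) did. The Ubd/Ido1 cluster gave 6 of these 15 niche and 4 of these 17 distal cells.

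**Figure D5:**
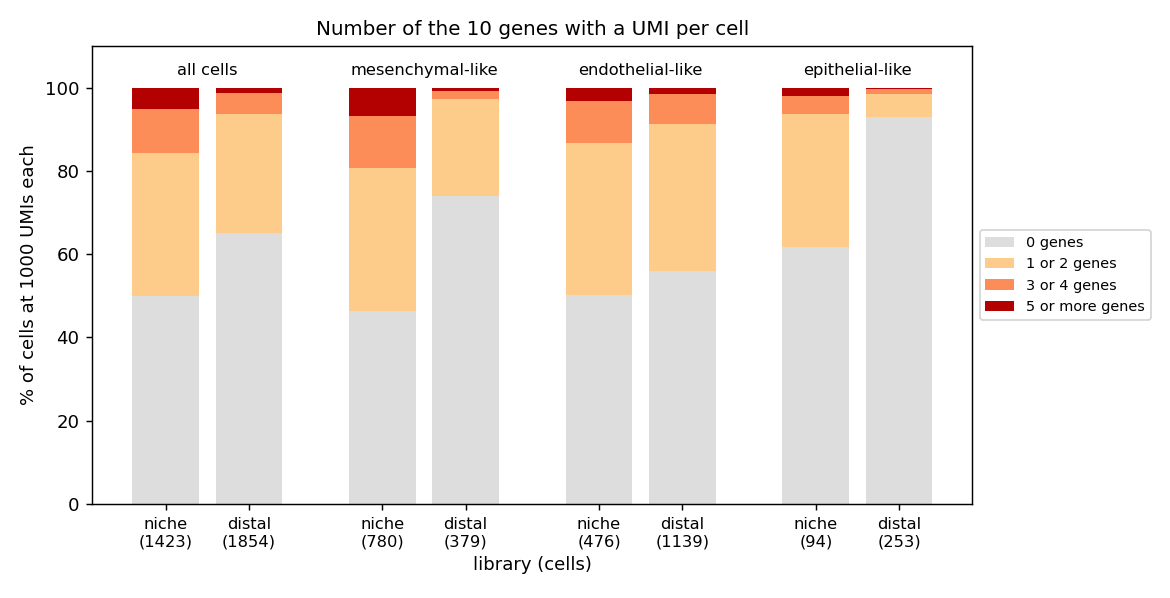
Number of the 10 genes with a UMI per cell after every cell was thinned to 1000 UMIs, as stacked percentages of cells by class, with the niche library left of the distal library. Numbers of cells stand in brackets. Cells with 5 or more genes make up 6.92% of niche and 0.792% of distal mesenchymal-like cells.

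Of the cluster shares, the Cxcl14/Timp1 cluster held 54.3% of the niche library's Rsad2 UMIs and 64.9% of its Ifit2 UMIs with 20.9% of its cells. For Rtp4 its share was 25.5%, near its 26.1% of all niche UMIs. In the distal library the Sox17/Sema3c cluster held 46.2% of Rsad2, 41.3% of Ifit1 and 12.3% of Ifit2 UMIs with 18.7% of the cells. Mesenchymal-like cells held 395 of the 534 Rsad2 UMIs of the niche library, and endothelial-like cells held all 104 of the distal library, 48 in the Sox17/Sema3c cluster and 49 in the Ubd/Ido1 cluster.

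Other genes of the pathway were counted by lists, some of which share members such as Tap1. Of all genes measured in mesenchymal-like cells, 3.4% were 2-fold higher in the niche library and 7.41% lower. These shares were 2.11% and 1.72% in endothelial-like cells, and 12.4% and 10.3% in epithelial-like cells. They stand beside each list count of the class, above and below. In mesenchymal-like cells, 32 of 54 other antiviral interferon-stimulated genes were 2-fold higher in the niche library and 0 were lower, with a median log2 ratio of 1.27. Ifi44 (3.71, 2.50 to 5.77), Trim30a (3.37), Ifi204 (2.48), the peptide transporter gene Tap1 (2.37), Phf11d (2.25) and Ifi203 (2.08) had the bounds farthest from 0. The membrane protein genes Ifitm2 (0.39) and Ifi27l2a (0.65) were not 2-fold apart, and Ifi27 had a log2 ratio of -0.49. In endothelial-like cells 4 of 53 were 2-fold higher, namely Oasl1 (1.74), Ifitm1 (1.82), Slfn2 (1.34) and Ifi204 (1.10), and 0 were lower. The abundant Ifitm3 (0.03), which restricts virus entry, and Ly6e (0.02) were level between the libraries there. In epithelial-like cells 21 of 49 were 2-fold higher and 0 lower, with the same difference in cell kinds as above.

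Genes induced by interferon gamma were 2-fold higher in 20 of 22 cases in mesenchymal-like cells and lower in 0. Of all genes there, 3.4% were higher. The chemokine genes Cxcl9, with 1532 CPM in niche and 20.4 CPM in distal cells (6.19, 5.59 to 6.96), and Cxcl10, with 4295 CPM and 188 CPM (4.51, 4.30 to 4.74), and Ubd, with 359 niche and 1 distal UMIs (6.13), had the bounds farthest from 0. The guanylate-binding protein gene Gbp4 had a log2 ratio of 3.27 and Irgm1 2.68. In endothelial-like cells 5 of 23 were 2-fold higher and 0 lower, where 2.11% of all genes were higher. The 5 were Ubd (3.49), Cxcl9 (2.78), Cxcl10 (1.89), Ido1 (1.43) and Cd274 (1.27). Gbp4 was at 891 CPM in niche and 677 CPM in distal endothelial-like cells (0.40). In epithelial-like cells 17 of 19 were 2-fold higher and 0 lower, where 12.4% of all genes were higher. The epithelial cells compared differed in kind, as given above.

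None of the 14 interferon ligand genes searched was listed in either table, which is not a count of 0. Of 5 receptor genes, 0 were 2-fold higher or lower in mesenchymal-like and in endothelial-like cells. Ifngr1, a chain of the interferon gamma receptor, had a log2 ratio of -0.59 in mesenchymal-like cells and -0.36 in endothelial-like cells. Jak2, a kinase of the interferon gamma receptor, was 2-fold higher in mesenchymal-like cells, with 92 niche and 9 distal UMIs (1.51, 0.59 to 2.75), and had 20 niche and 44 distal UMIs in endothelial-like cells (-0.22). Of 12 sensor and adaptor genes in mesenchymal-like cells, 4 were higher, where 3.4% of all genes were. They were Tmem173, which encodes STING (3.13), Samhd1 (1.96), the RNA sensor gene Ifih1 (1.79) and Dhx58 (1.71). Mavs, the adaptor of RNA sensors, was the 1 lower gene of the 12, with 21 niche and 15 distal UMIs (-1.31, -2.32 to -0.23). In that class 7.41% of all genes were lower. Tmem173 (1.99) was also the 1 sensor gene 2-fold higher in endothelial-like cells, and Irf8 (2.24) the 1 of the interferon regulatory factor list. Of 8 negative regulators in mesenchymal-like cells, Socs1 (1.80), Ptpn2 (1.20) and Usp18 were higher, while Socs3 (-0.61) was not 2-fold apart.

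The 14 clusters of each library with at least 20 cells gave 28 points. Over these, the level of each gene outside all lists with at least 100 UMIs was correlated with the mean standardised level of the 10. Ribosomal and mitochondrial genes and genes without a symbol-like name were left out. The correlation is a description, in which points of 1 library share its depth and any free RNA. Each of the 10 was also set against the mean of the other 9. Pearson's r was highest for Oasl2, Irf7 and Isg15 (0.76 each) and lowest for Ifit2 (0.42). Among genes outside all lists, Manf (0.82), Gars (0.81), March5 (0.81), Pdia6 (0.80), Calr (0.79), Tapbp (0.77), Gbp8 (0.75), Psme2 (0.73), Hspa5 (0.73) and Psmb2 (0.73) had the highest r of 7796 genes.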

How the data were processed

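Single-cell 3′ libraries were made with the 10x Genomics Chromium kit, 1 from niche and 1 from distal CD45-negative lung cells, aiming at 50000 reads per cell per the labels. The deposited values are raw UMI counts, with genes in rows and cells in columns, and the submitters' processing notes name Cell Ranger 2.1.1, R 3.4.1 and mm10. Whether empty droplets, doublets or genes were filtered before deposit is not given in the sources used here.

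Kept were cells in which 500 or more genes were detected and mitochondrial counts made up no more than 10%, 1423 of 1473 niche and 1987 of 1996 distal barcodes. Scrublet in scanpy 1.11.5 called 10 niche (0.703%) and 24 distal (1.21%) doublets, which stayed in except in an alternative. Levels are summed UMIs per 1000000 UMIs (CPM) of the 10198 genes listed in both tables. For clustering, 2000 variable genes without the 10 genes and the interferon lists gave 20 components and 15 neighbours, and Leiden clustering (leidenalg 0.10.2, resolution 1) gave 18 clusters. A class was named from a marker list of which at least 3 genes were detected in 25% of a cluster's cells. The cluster kept apart had a marker of another class among its 10 leading genes and none of its own.

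Log2 ratios have 0.5 UMI added to each sum. Intervals are exact 95% ones (scipy 1.17.1): Poisson for levels, Clopper-Pearson for shares and conditional binomial for ratios. The limit for a count of 0 takes 3 counts. UMIs of 1 gene gather in few cells, so the intervals are too narrow even for these libraries. With 1 library per group no test, SD or adjusted p-value was possible. The ratio step was tested on simulated sums drawn independently for each gene. That setting shares the assumption of the intervals, so it cannot check them where UMIs gather in few cells. Genes were named by a rule: all 10, the called genes of each pathway list by the bound nearest 0 (up to 6), up to 3 more by UMI sum, and the 10 genes most like the set. The 10 genes, the lists and the rules were chosen with earlier results of these data known. Alternatives covered the scaling, cell filters, doublets, cells low in Malat1, depth, added counts, the top 1% of cells, clustering, cluster mix, thresholds and minimum sums.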

Additional observations from a re-analysis of the deposited data

How the results depend on the processing

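No paired analysis was possible because each group is 1 library. In sums over the 10 genes given as log2 niche over distal, the value over all cells (1.33) was 1.40 in cells with at least 1000 genes, 1.11 in thinned cells, 1.42 without the top 1% of cells and 0.97 with niche classes weighted to distal shares, which was chosen after seeing the data. In mesenchymal-like cells (2.28) it was 1.70 as the mean within clusters and 2.05 without the Cxcl14/Timp1 cluster. In endothelial-like cells (0.50) it was 0.37 with at least 1000 genes, 0.19 within clusters, 0.71 without the Sox17/Sema3c cluster and 0.14 without the Ubd/Ido1 cluster. In epithelial-like cells (1.64) it was 2.06 without cells low in Malat1, 1.97 thinned, 2.12 without the top 1%, 2.37 without the Scgb1a1/Sfn cluster, 1.98 without the Ager/Spock2 cluster and -0.41 without the Sftpc/Sftpa1 cluster. At 4-fold, 3 genes passed over all cells, 6 in mesenchymal-like, 0 in endothelial-like and 3 in epithelial-like cells. The endothelial count of 3 was 1 with at least 1000 genes, 1 thinned, 0 within clusters and 0 without the Ubd/Ido1 cluster. The epithelial count of 9 was 3 thinned and 1 without the Sftpc/Sftpa1 cluster. The share of all genes 2-fold higher was not counted under these alternatives, so the lower counts have nothing to be read against. Among genes 2-fold apart, Ifit2 turned in endothelial-like cells within clusters (-0.60), where it had under 10 UMIs in each of the 5 clusters. Without the Ubd/Ido1 cluster, Ifit2 (-0.070) and Rsad2 (-1.0) turned there. In epithelial-like cells without the Sftpc/Sftpa1 cluster, Ifit1 (-0.30), Ifit3 (-1.58), Isg15 (-0.30), Usp18 (-1.58) and Irf7 (-0.93) turned. On the distal side, every epithelial value without that cluster rests on 9 Scgb1a1/Sfn and 29 Ager/Spock2 cells. Of those 29, 1 cell had a UMI of 9 of the 10 genes and held most of their UMIs of the 10. Genes under 2-fold also changed sign: endothelial Isg15 (-0.04 within clusters, -0.09 without Ubd/Ido1) and Usp18 (-0.10 within clusters), and epithelial Ifit2 (-0.29 without cells low in Malat1, -1.02 without Scgb1a1/Sfn, -2.21 without Sftpc/Sftpa1). For shares of cells with a UMI of the 10, thinning gave 53.6% of niche and 26.1% of distal mesenchymal-like cells (71.4% and 41.1% at own depth), 49.8% and 44.2% of endothelial-like (73.1% and 56.7%), and 38.3% and 7.11% of epithelial-like cells (58.5% and 28.0%). The cause was not tested, apart from fewer cells or UMIs by construction. The mean within clusters could not be had for epithelial-like cells, where no cluster held 20 cells in both libraries. Of 90 values of single genes over all cells under the alternatives, 73 stayed within the interval, 17 moved and 0 turned. Of 160 mesenchymal values, 151 stayed, 9 moved and 0 turned. Of 200 endothelial values 181 stayed, 16 moved and 3 turned, and of 130 epithelial values 111, 14 and 5, where turned counts only genes 2-fold apart. Few UMIs limit Ifit2 and Usp18 in distal mesenchymal-like cells (16 and 12 UMIs).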

Other observations

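Several relatives of the 10 genes were listed in 1 table alone, which is not a count of 0 in the other. The niche table alone listed Mx1, which encodes a GTPase that restricts viruses, with 81 UMIs in 47 cells. It alone also listed Ifi44l (64 UMIs), Apol9a (62 UMIs), Slfn8 (55 UMIs), Ifi205 (49 UMIs), Irf5 (41 UMIs), Oas1g (25 UMIs) and Ikbke (23 UMIs). The distal table alone listed Mb21d1, which encodes the DNA sensor cGAS, with 21 UMIs.

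The cluster led by Ccl21a, a gene of lymphatic endothelium, and Tbx1 had a summed level of the 10 genes of 941 CPM in 34 niche cells and 590.1 CPM in 11 distal cells, with 118 and 19 UMIs. The Vwf/Cpe endothelial cluster had 1111 CPM in 18 niche cells and 866 CPM in 87 distal cells. In the Pi16/Serpinf1 cluster Ifit3 had 124 niche and 7 distal UMIs, a log2 ratio of 3.01, while Rtp4 had a log2 ratio of 0.54 (-0.18 to 1.37). In the Actg2/Mustn1 cluster Zbp1 had 248 niche and 3 distal UMIs (4.16) and Ifit2 had 13 and 3 (-0.05).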
